A study of Homo sapiens with 6 samples.

Results

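The nuclear-encoded genes of the mitochondrial respiratory chain were compared, complex by complex, between LN229 cells overexpressing HSD52 and control LN229 cells. LN229 is an established human glioblastoma cell line, and HSD52 is a long non-coding RNA gene on chromosome 1. The members were the protein-coding genes outside the mitochondrial chromosome whose symbols begin with NDUFA, NDUFB, NDUFC, NDUFS, NDUFV, UQCR, COX4 to COX8 or ATP5, or are SDHA, SDHB, SDHC, SDHD, CYC1 or CYCS. They came to 101 of the 58735 genes in the count table. Complex I had 46 members, complex II 4, complex III 10, complex IV 19 and complex V 21, and cytochrome c (CYCS) was the remaining 1. NDUFA4 and NDUFA4L2 were placed with complex IV, where the NDUFA4 protein works despite its name. By function 88 members are subunits, 8 are complex I assembly factors (NDUFAF1 to NDUFAF8), and 5 are neither (COX7A2L, ATP5IF1, ATP5S and 2 readthrough genes).

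The series held 6 bulk RNA-seq libraries. The 3 control libraries are labelled WT, the 3 others (HSD52_OE) are labelled as overexpressing HSD52, and all come from the same line. The labels do not say whether controls carried an empty vector, whether the overexpressing cells are a clone or a pool, or whether replicates came from separate cultures, so the p-values reflect no more than how these libraries vary, and that variation may be technical. HSD52 itself had 11, 7 and 12 counts in control replicates 1, 2 and 3 and 1252, 1336 and 1327 counts in HSD52_OE replicates 1, 2 and 3, the order in which library values are given throughout. Library totals ran from 17777157 to 18917790 counts. The 8 glioblastoma or neural markers listed were all detected, 3 of them higher (SOX2, GFAP and FABP7) and 2 lower (S100B and CD44) in HSD52_OE, with sums of 3190 ± 156 counts per 1000000 counts of the library (CPM, TMM-scaled) for the control group and 2936 ± 37.7 CPM for HSD52_OE (SD, n = 3). All 6 fibroblast markers were lower in HSD52_OE, with summed levels of 102 to 183 CPM in control and 38.8 to 40.2 CPM in HSD52_OE. Endothelial markers lay between 1.20 and 3.07 CPM in sum, with PECAM1, 1 of the 2 tested, lower (0.910 ± 0.299 to 0.173 ± 0.0566 CPM), and immune markers between 0.833 and 2.29 CPM, with CD3E and AIF1 at 0. KRT8 and KRT18, the 2 epithelial markers tested, were higher while CDH1 was at 0, and 2 of 3 tested neuron markers were lower. The part of these markers in the results below was not tested. In bulk RNA, fewer cells of a type and less RNA per cell cannot be told apart.

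Complex I takes electrons from NADH and complex II takes them from succinate, and both hand them to coenzyme Q. Complex III passes them on to cytochrome c, complex IV delivers them to oxygen, and complex V makes ATP from the proton gradient that complexes I, III and IV build. Complex II is coded wholly in the nucleus, while each of the other complexes combines nuclear subunits with a few coded by mitochondrial DNA. Glioblastoma is known for a high rate of glycolysis, alongside which many of its cells keep respiring.

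The promoter windows of 5 members are shown because the results turn on these genes: NDUFS7, SDHA, UQCRC1 and COX5A were lower in HSD52_OE, and UQCRC2 is the partner of UQCRC1 that was higher. Each is the RefSeq window of 250 bases before to 50 after the gene's start (GRCh38.p14), printed 5′ to 3′ on the gene's strand. Capitals mark matches, on either strand, to GCGCATGC (a piece of the NRF1 motif), CCGGAAG (the core of the ETS motif that GABPA binds), AAGATGG (YY1) or GCGCAGGC, which has G in place of the NRF1 piece's T and was searched only after the SDHA sequence had been read. The NRF1 piece and its reverse complement overlap within the full NRF1 motif.
NDUFS7, chr19:1383657-1383956, plus strand: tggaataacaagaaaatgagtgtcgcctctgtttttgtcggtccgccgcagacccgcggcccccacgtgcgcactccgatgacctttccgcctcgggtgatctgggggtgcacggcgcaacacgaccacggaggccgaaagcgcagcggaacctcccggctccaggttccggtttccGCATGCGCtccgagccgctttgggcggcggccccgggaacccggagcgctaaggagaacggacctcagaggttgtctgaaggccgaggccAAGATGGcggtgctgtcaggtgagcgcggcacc
SDHA, chr5:218070-218369, plus strand: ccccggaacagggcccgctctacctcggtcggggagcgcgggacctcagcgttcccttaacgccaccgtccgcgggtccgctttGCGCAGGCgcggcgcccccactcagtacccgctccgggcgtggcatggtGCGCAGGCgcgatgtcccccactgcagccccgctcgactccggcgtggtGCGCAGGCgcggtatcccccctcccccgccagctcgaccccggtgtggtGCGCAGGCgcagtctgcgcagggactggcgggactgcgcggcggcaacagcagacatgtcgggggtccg
UQCRC1, chr3:48609597-48609896, minus strand: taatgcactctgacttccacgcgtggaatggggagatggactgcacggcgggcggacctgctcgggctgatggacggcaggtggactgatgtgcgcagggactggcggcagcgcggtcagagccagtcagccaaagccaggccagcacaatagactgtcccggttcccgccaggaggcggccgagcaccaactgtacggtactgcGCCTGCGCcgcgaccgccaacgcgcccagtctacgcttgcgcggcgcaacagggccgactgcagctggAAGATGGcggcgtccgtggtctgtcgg
UQCRC2, chr16:21953111-21953410, plus strand: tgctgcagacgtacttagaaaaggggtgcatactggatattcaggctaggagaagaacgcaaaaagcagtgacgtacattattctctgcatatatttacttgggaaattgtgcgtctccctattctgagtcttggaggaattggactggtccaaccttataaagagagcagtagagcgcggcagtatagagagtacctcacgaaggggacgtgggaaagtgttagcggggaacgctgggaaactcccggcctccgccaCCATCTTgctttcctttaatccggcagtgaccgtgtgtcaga
COX5A, chr15:74938024-74938323, minus strand: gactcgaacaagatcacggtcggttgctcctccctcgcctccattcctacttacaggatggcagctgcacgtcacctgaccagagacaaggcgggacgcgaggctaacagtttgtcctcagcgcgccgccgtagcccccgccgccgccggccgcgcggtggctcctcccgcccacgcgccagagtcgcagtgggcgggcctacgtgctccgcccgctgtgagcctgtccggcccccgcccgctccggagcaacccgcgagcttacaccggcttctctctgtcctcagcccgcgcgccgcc

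SDHA held GCGCAGGC 4 times, beginning 166, 117, 68 and 19 bases before the start. NDUFS7 held the NRF1 piece 73 bases before the start and the YY1 match 17 bases after it. UQCRC1 and UQCRC2 both had a YY1 match just after the start. UQCRC1 also held the reverse complement of GCGCAGGC 45 bases before the start, and COX5A had no match. RefSeq windows were found for 79 members, of which 24 were called lower, 8 higher and 42 neither, and 5 were not tested. The NRF1 piece stood in 21.5% of those 79 windows and in 3.68% of the windows of all 27305 genes. The ETS core stood in 29.1% against 12.2%, the YY1 match in 24.1% against 7.11%, and GCGCAGGC in 17.7% against 7.41%. The windows of all genes were not limited to protein-coding or expressed genes, so these shares are not matched to the members. Among the members, the NRF1 piece was in 3 of the 24 called lower, 0 of the 8 called higher and 14 of the 42 not called. The ETS core was in 6 of 24, 1 of 8 and 16 of 42 in the same order, and the YY1 match in 5 of 24, 3 of 8 and 10 of 42. GCGCAGGC was in 6 of 24, 1 of 8 and 6 of 42. A match describes letters only.

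Of the 101 members, 92 had enough counts to be tested. In HSD52_OE 31 were lower, 11 were higher and 50 did not pass the test (quasi-likelihood test in edgeR, p-values adjusted by Benjamini-Hochberg across the 16322 genes that were tested, threshold 0.05). These are 33.7% and 12% of the tested members. Among all genes tested 25.6% were called lower and 25% higher, among protein-coding genes 30.1% and 21.4%, and among protein-coding genes whose mean reached 10 CPM 34.6% and 18.4%. These background shares also apply to the counts for each complex and gene list below, and no list was tested as a set. The 88 members at or above 10 CPM gave 35.2% lower and 10.2% higher. The members' share of lower calls thus lay near that of protein-coding genes of like level, and their share of higher calls was below it, a difference for which no test was run. For the 88 members at or above 10 CPM the median log2 fold change, HSD52_OE over control, was -0.15, with 72.7% below 0. Over protein-coding genes that reached 10 CPM it was -0.10, with 60.3% below 0. The median of all 92 tested members was -0.11, against 0.01 over all genes. With libraries scaled by their totals alone, which moves the median of all genes up by 0.12, the members' median was 0.01, with 18 called lower and 18 higher, and the counts of lower and higher calls turned to 5 and 14 in complex I and to 2 and 1 in complex IV. The 3 control values did not overlap the 3 HSD52_OE values for 44 tested members (47.8%), against 58.9% of all genes tested. With a fold of at least 1.5, 5 of the 92 tested members were called lower and 5 higher. Of the 88 members at or above 10 CPM, 5 were lower and 3 higher by that measure. Of all genes tested 10.4% were lower and 16.4% higher by that measure, and of protein-coding genes that reached 10 CPM 11% and 5.74%. In each direction the members' share was below that of the matching background, with no test run.

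**Figure D1:**
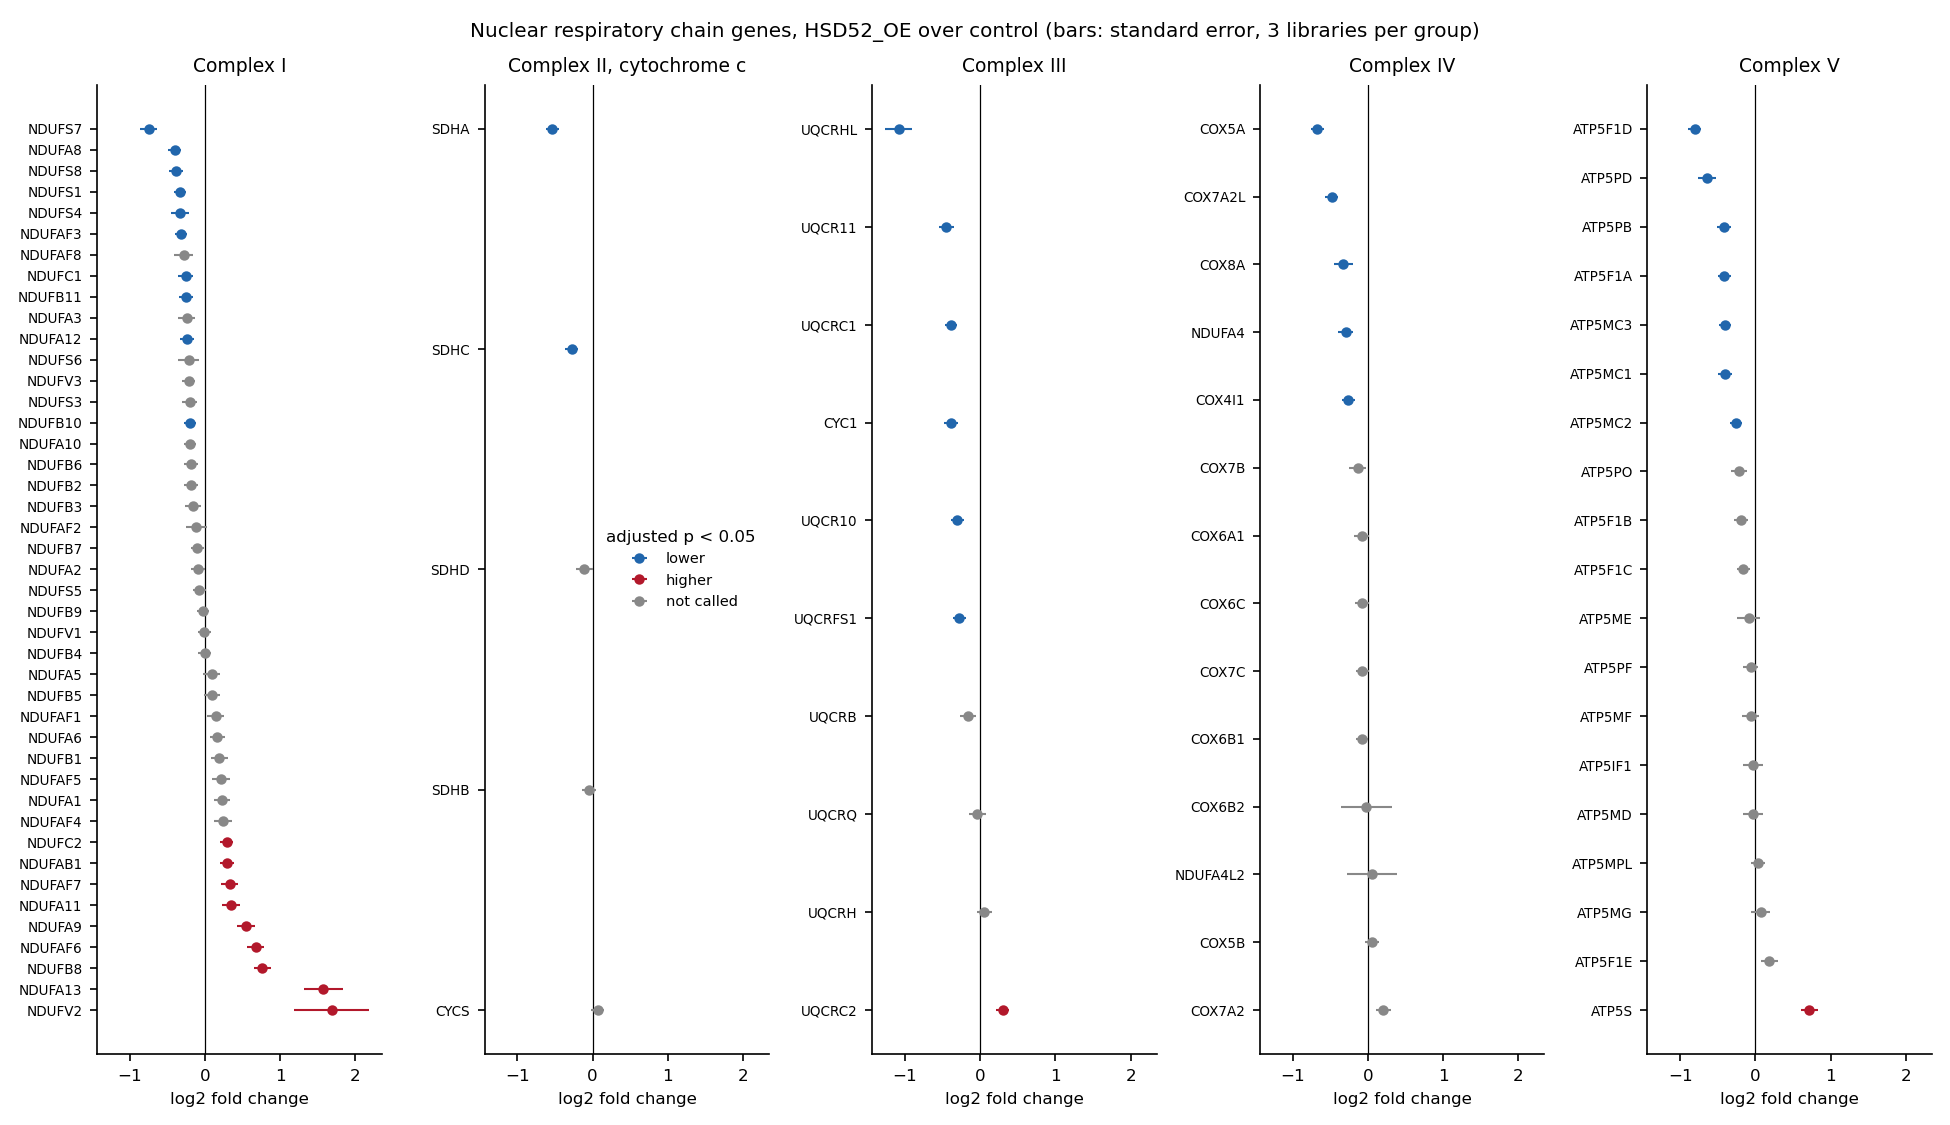
Log2 fold change, HSD52_OE over control, of tested members by complex (x axis), with the standard error as a bar and colour for the call at adjusted p under 0.05. Complexes II, IV and cytochrome c have no member called higher, and 5 lower and 5 higher members pass a fold of 1.5.

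Summed over members, the nuclear respiratory chain took 10736 ± 613 CPM in control and 9576 ± 144 CPM in HSD52_OE (SD, n = 3), a ratio of 0.892 with no overlap between groups. The TMM factors were 0.940, 0.947 and 0.987 in control and 1.05, 1.04 and 1.04 in HSD52_OE. An equal share of a library's counts therefore gives fewer TMM-scaled CPM in HSD52_OE, for any set of genes. With library totals alone the ratio was 0.971 and the groups overlapped. Complex II had the lowest ratio, 0.796, from 506, 514 and 515 CPM in control replicates 1 to 3 to 398, 405 and 419 CPM in HSD52_OE. Complex V had 3473 ± 144 and 2975 ± 61.8 CPM (0.856) and complex IV 2112 ± 128 and 1876 ± 9.03 CPM (0.888), both without overlap. For complexes I (0.931) and III (0.915) the groups overlapped through control replicate 1, and for cytochrome c (1.05) they overlapped as well. Under library totals alone the ratio was 1.01 for complex I, 0.867 for II, 0.996 for III, 0.966 for IV and 0.932 for V, so complex I changed side, and only complex II kept its groups apart. With each member's TMM-scaled CPM divided by its exonic length in kb, the ratios of complexes II, V and IV lay closer together, at 0.844, 0.870 and 0.873.

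Control replicate 1 stood apart from the other controls for these genes. Its median deviation from each member's control mean was -0.13 on the log2 scale, against 0.07 and 0.04 in control replicates 2 and 3 and -0.16, -0.10 and -0.07 in HSD52_OE, so that it lay among the HSD52_OE libraries. The mitochondrially encoded subunits went the other way, with 33717 CPM in sum in control replicate 1, 26468 and 27576 CPM in the other controls, and 30674, 31241 and 29515 CPM in HSD52_OE. Without control replicate 1, 41 members were called lower and 7 higher, and complex I had 19 lower and 5 higher. The summed ratios were then 0.897 for complex I and 0.875 for complex III. Their groups no longer overlapped, which follows from leaving out the only control that lay within the HSD52_OE range. Without HSD52_OE replicate 1, 2 or 3 the lower calls came to 20, 22 and 23. The part of control replicate 1 in the results was not tested beyond these values.

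**Figure D2:**
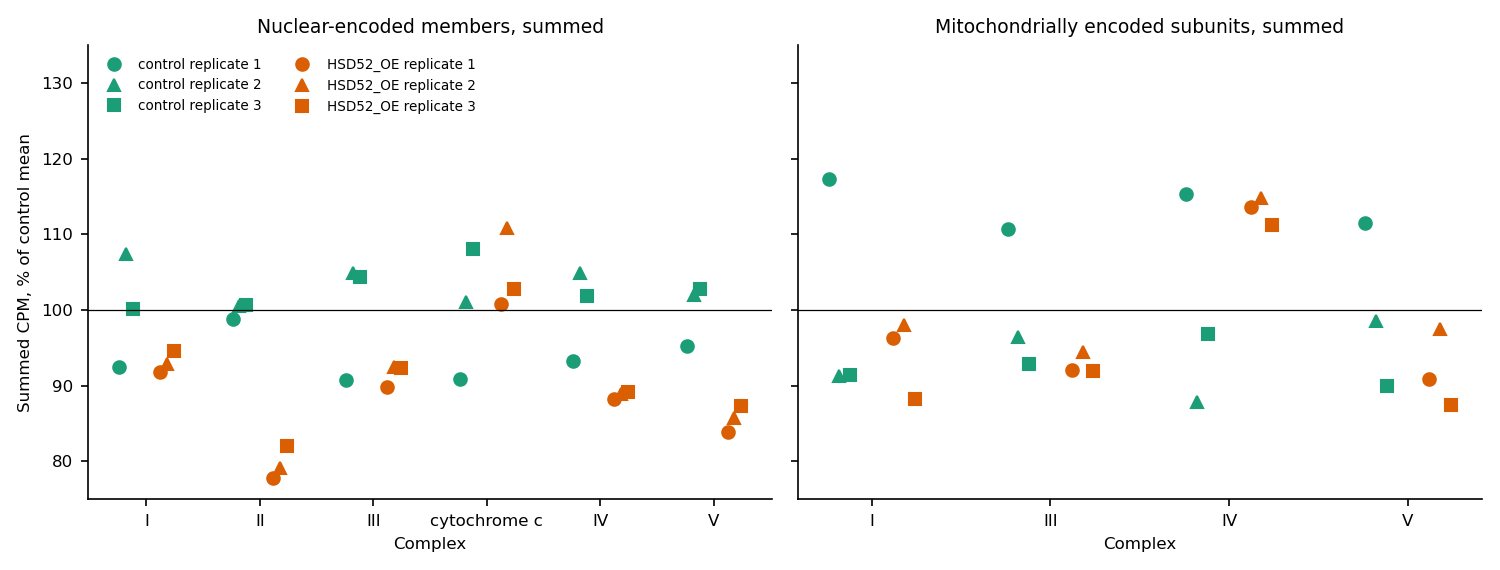
Summed CPM by complex in each library as a percentage of the control mean (y axis, not starting at 0), for nuclear members (left) and mitochondrially encoded subunits (right). Control replicate 1 is the lowest control for every nuclear complex and the highest for every mitochondrially encoded group, and the HSD52_OE libraries lie below all controls for complexes II, IV and V on the left.

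Complex I begins with its peripheral arm, whose core subunits carry the flavin and the iron-sulfur clusters that lead electrons from NADH to coenzyme Q. Of the 7 nuclear core subunits 4 were lower, 1 was higher and 2 did not pass. NDUFS7, which holds the last iron-sulfur cluster before coenzyme Q, had 33.3, 40.9 and 31.2 CPM in control and 20.3, 22.0 and 20.5 CPM in HSD52_OE (log2 fold change -0.75 ± 0.11, adjusted p = 6.11e-05). All 3 HSD52_OE libraries lay below the lowest control. NDUFS8, a further iron-sulfur subunit, had 100.1, 123 and 115 CPM in control and 82.3, 86.6 and 90.3 CPM in HSD52_OE (log2 fold change -0.39 ± 0.09, adjusted p = 0.00229). NDUFS1, the largest subunit, had 149.8, 144 and 153 CPM in control and 118, 117 and 119 CPM in HSD52_OE (log2 fold change -0.33 ± 0.08, adjusted p = 0.00213), and its 3 values within each group were nearly the same. NDUFS3 had 57.9, 64.5 and 64.2 CPM in control and 47.9, 54.7 and 59.2 CPM in HSD52_OE and did not pass (log2 fold change -0.21 ± 0.09, adjusted p = 0.0818), and 1 HSD52_OE library lay within the control range.

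NDUFV1, which binds NADH and the flavin, had 213, 232 and 200.0 CPM in control and 218, 208 and 214 CPM in HSD52_OE, and its groups overlapped fully (log2 fold change -0.01 ± 0.08, adjusted p = 0.938). Its partner NDUFV2 is the exception in direction, at 2, 9 and 9 counts in control and 15, 18 and 38 counts in HSD52_OE, or 0.376 ± 0.225 CPM in control and 1.22 ± 0.614 CPM in HSD52_OE (log2 fold change 1.68 ± 0.49, adjusted p = 0.00998). This call was lost without control replicate 1 (adjusted p = 0.0554) and without HSD52_OE replicate 3 (adjusted p = 0.0934). Of NDUFV2's coding bases 84.7% also lie in exons of another gene, AP005263.1, and its named pseudogene held 51.3% of the counts of the pair. How reads that fall in 2 genes were counted is not given in the sources used here. AP005263.1 had 0 CPM in both groups. The readthrough gene NDUFC2-KCTD14, with 100% of its exonic bases in exons of other genes, had 0 CPM in control beside 38.3 CPM for NDUFC2. Reads in shared exons were thus not counted for both genes there. How far the NDUFV2 row follows the NDUFV2 transcript was not tested.

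**Figure D3:**
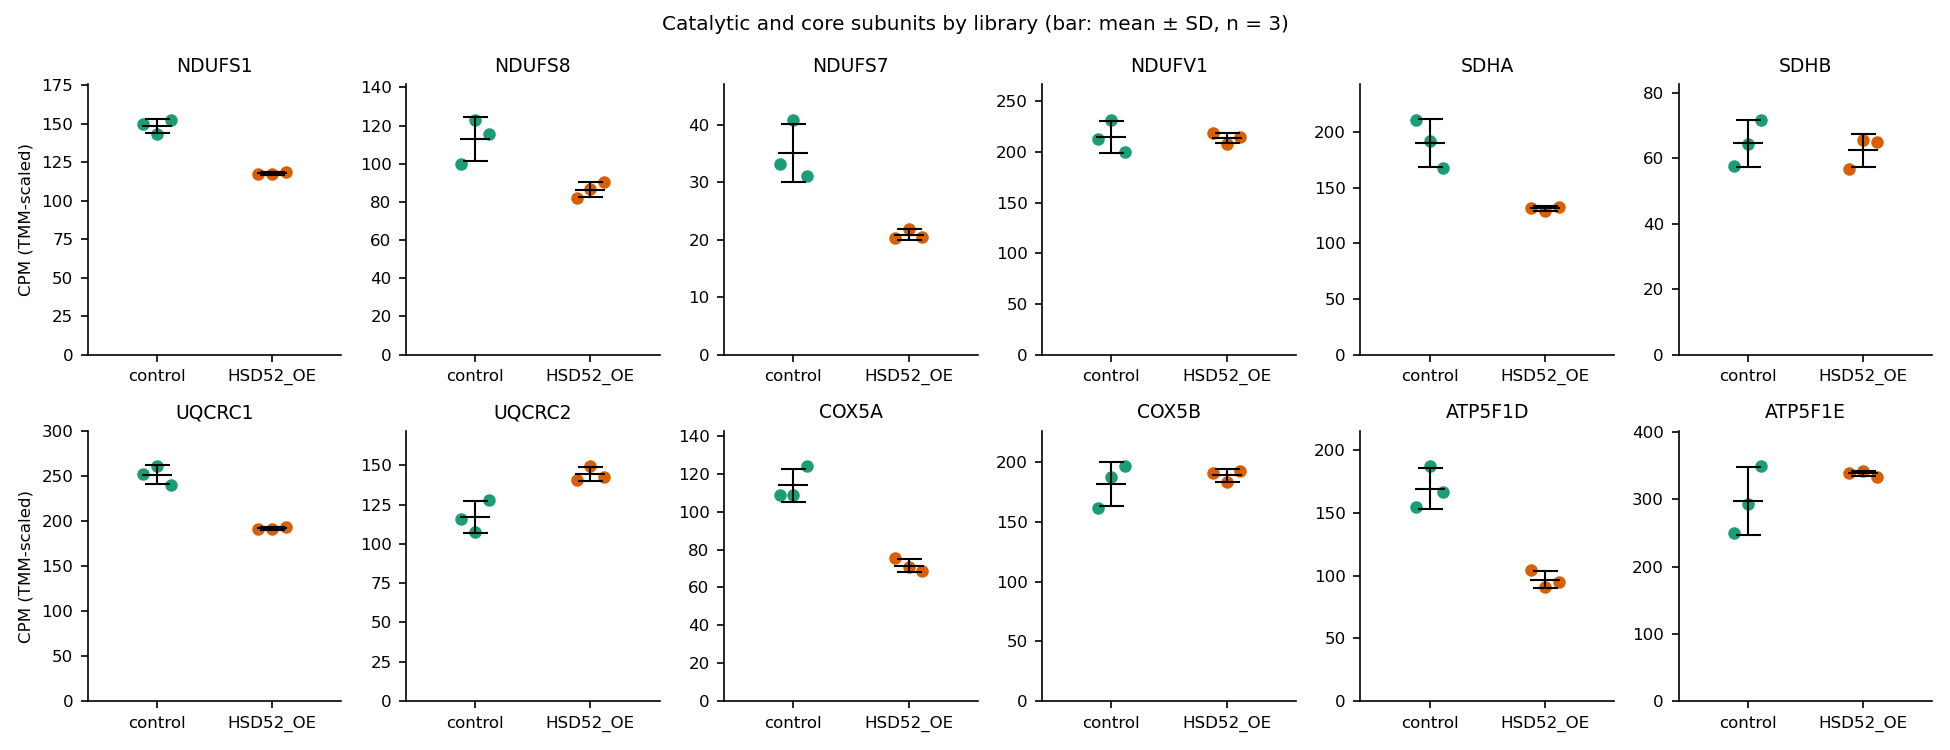
CPM in each library (y axis, starting at 0) of core and named subunits, with points for the libraries and a line at each group's mean. The groups are apart for NDUFS7, SDHA, UQCRC1, COX5A and ATP5F1D and overlap for NDUFV1.

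The accessory subunits of complex I surround the core without carrying electrons. In the peripheral arm 2 of 8 tested were lower (NDUFS4 and NDUFA12) and NDUFA9 was higher. NDUFS4, a subunit whose loss is a known cause of Leigh syndrome, had 33.4 ± 6.62 CPM in control and 26.6 ± 1.17 CPM in HSD52_OE with overlapping groups (log2 fold change -0.33 ± 0.13, adjusted p = 0.0361). In the membrane arm near the peripheral arm, NDUFA8 and NDUFC1 were lower and NDUFA11, NDUFA13 and NDUFC2 were higher, of 9. NDUFA8, on the side facing the intermembrane space, had 66.1, 74.0 and 64.4 CPM in control and 51.8, 51.5 and 51.4 CPM in HSD52_OE (log2 fold change -0.40 ± 0.09, adjusted p = 0.00109), and the HSD52_OE values differed by less than 1 CPM from each other. In the far membrane arm NDUFB10 and NDUFB11 were lower and NDUFB8 was higher, of 11. NDUFB10 lay just under the threshold (log2 fold change -0.20 ± 0.08, adjusted p = 0.05). NDUFAB1, the mitochondrial acyl carrier protein, which serves both complex I and fatty acid synthesis, had 81.9, 93.0 and 107 CPM in control and 111, 122 and 112 CPM in HSD52_OE (log2 fold change 0.29 ± 0.10, adjusted p = 0.0202). Its groups were apart, and the call was lost without control replicate 1 (adjusted p = 0.102) and without HSD52_OE replicate 2 (adjusted p = 0.102). NDUFS4, NDUFA12, NDUFC1, NDUFB10 and NDUFB11 each lost their calls in at least 6 of 14 alternative fits, including those without HSD52_OE replicate 1 or replicate 2. The 24 complex I members that did not pass, subunits and assembly factors together, had log2 fold changes between -0.28 (NDUFAF8) and 0.24 (NDUFAF4).

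Of the 9 complex I members called higher, 5 have more than 50% of their coding bases inside exons of another gene: NDUFB8 (85.2%), NDUFV2 (84.7%), NDUFC2 (76.9%), NDUFA9 (67.9%) and NDUFA13 (55.2%). For NDUFA11 the share was 37.8%. NDUFA11 lost its call without control replicate 1 or 3 or HSD52_OE replicate 1 or 3, and NDUFC2 without HSD52_OE replicate 2 or 3. NDUFB8 had 17.5, 19.4 and 15.9 CPM in control and 26.3, 31.9 and 31.0 CPM in HSD52_OE (log2 fold change 0.76 ± 0.11, adjusted p = 5.92e-05), with every HSD52_OE library above the highest control. NDUFA13 had 1.28, 0.968 and 0.833 CPM in control and 3.18, 2.86 and 3.15 CPM in HSD52_OE (log2 fold change 1.57 ± 0.26, adjusted p = 0.000136), a level near 0 for a subunit of an enzyme that the other rows show expressed. NDUFA7, with 78.3% of its coding bases shared, had at most 19 counts in any library and was not tested. The readthrough genes NDUFC2-KCTD14 and ATP5MF-PTCD1 and the ATP5MG copy ATP5MGL, also untested, had at most 1 count in any library. For the readthrough genes 100% and 98.2% of coding bases lie in exons of other genes, so their counts do not show that the transcripts were absent. In all, 14 members passed 50%, of which 11 were tested, with 2 lower (UQCR11 and COX8A) and 5 higher. Without those 14 members complex I had 11 lower and 4 higher, and all complexes together 29 lower and 6 higher. The part of shared exons in these calls was not tested.

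Assembly factors of complex I guide its construction and are not part of the finished enzyme. NDUFAF6 and NDUFAF7 were higher, NDUFAF3 was lower, and 5 of the 8 did not pass. NDUFAF6 had 12.4, 14.1 and 13.3 CPM in control and 21.6, 20.2 and 21.6 CPM in HSD52_OE (log2 fold change 0.67 ± 0.11, adjusted p = 0.000122) and no coding bases shared. NDUFAF7, a methyltransferase, had 21.8 ± 3.01 CPM in control and 27.4 ± 0.920 CPM in HSD52_OE (log2 fold change 0.33 ± 0.11, adjusted p = 0.0211), a call lost in 5 of 14 alternative fits, including those without control replicate 1 or 2 or any 1 HSD52_OE library. NDUFAF3 had 84.7 ± 2.26 CPM in control and 68.1 ± 3.33 CPM in HSD52_OE (log2 fold change -0.31 ± 0.08, adjusted p = 0.00431), a call lost with library totals alone (adjusted p = 0.062). Among 12 further complex I assembly genes outside the name rule, 4 were higher and 1 was lower. Of all protein-coding genes tested 21.4% were higher and 30.1% lower. The lower was ECSIT at 29.7 ± 0.822 CPM in control and 18.7 ± 1.69 CPM in HSD52_OE, and the 3 higher ones with the smallest p were LYRM2 (71.9 ± 9.80 to 97.0 ± 3.5 CPM), COA1 (108 ± 12.1 to 132 ± 2.80 CPM) and NUBPL (14.6 ± 1.51 to 18.7 ± 0.983 CPM).

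Complex II, succinate dehydrogenase, also serves the citric acid cycle, and 2 of its 4 subunits were lower in edgeR and 0 higher, with 0 higher also at an unadjusted p under 0.05, in DESeq2 and in limma-voom. SDHA, the flavin subunit that oxidises succinate, had 211, 192 and 168 CPM in control and 132, 129 and 133 CPM in HSD52_OE (log2 fold change -0.53 ± 0.09, adjusted p = 0.000194). All controls lay above all HSD52_OE libraries. Named SDHA pseudogenes held 8.80% of the reads assigned to SDHA or to them. SDHB, the iron-sulfur subunit, had 57.6, 64.5 and 71.8 CPM in control and 56.7, 65.6 and 65.0 CPM in HSD52_OE, with overlap (log2 fold change -0.05 ± 0.10, adjusted p = 0.694). Of the membrane anchors, SDHC had 219, 239 and 252 CPM in control and 190.1, 192 and 202 CPM in HSD52_OE (log2 fold change -0.28 ± 0.08, adjusted p = 0.012) and SDHD had 18.3, 18.3 and 23.2 CPM in control and 18.7, 17.7 and 19.1 CPM in HSD52_OE (log2 fold change -0.11 ± 0.12, adjusted p = 0.455). SDHC's groups were apart and SDHD's overlapped, and SDHC lost its call without HSD52_OE replicate 1 (adjusted p = 0.0688) or replicate 2 (adjusted p = 0.0696). Of the 4 complex II assembly factors 3 were lower and 0 were higher (0 also at an unadjusted p under 0.05 and in DESeq2 and limma-voom): SDHAF1 (29.1 ± 4.28 to 19.7 ± 1.88 CPM), SDHAF3 (25.4 ± 2.44 to 19.1 ± 2.06 CPM) and SDHAF2 (22.1 ± 1.70 to 17.0 ± 0.999 CPM), the last of which attaches the flavin to SDHA.

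Complex III had 6 of 10 members lower and 1 higher. Both nuclear-encoded catalytic subunits were lower. CYC1, cytochrome c1, had 169, 192 and 154 CPM in control and 127, 128 and 139 CPM in HSD52_OE (log2 fold change -0.38 ± 0.09, adjusted p = 0.00276), and UQCRFS1, the Rieske iron-sulfur protein, had 80.0, 88.5 and 95.2 CPM in control and 70.9, 73.7 and 72.9 CPM in HSD52_OE (log2 fold change -0.28 ± 0.09, adjusted p = 0.0133). In both the groups were apart, and UQCRFS1 lost its call without HSD52_OE replicate 1 (adjusted p = 0.0633). The 2 large core proteins on the matrix side, which stand in the complex in equal number, went in opposite directions. UQCRC1 had 253, 261 and 240.3 CPM in control and 191, 192 and 194 CPM in HSD52_OE (log2 fold change -0.39 ± 0.08, adjusted p = 0.000906). UQCRC2 had 116, 107 and 128 CPM in control and 141, 149 and 143 CPM in HSD52_OE (log2 fold change 0.30 ± 0.09, adjusted p = 0.00798). Neither gene's groups overlapped, and the UQCRC2 call was lost without HSD52_OE replicate 2 (adjusted p = 0.0513).

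Among the 6 small accessory rows of complex III, UQCR11, UQCR10 and UQCRHL were lower. UQCR11 had 36.7, 47.7 and 39.2 CPM in control and 30.2, 30.0 and 30.4 CPM in HSD52_OE (log2 fold change -0.45 ± 0.10, adjusted p = 0.0022), and 100% of its coding bases lie in exons of another gene. UQCR10 had 79.1 ± 6.59 CPM in control and 64.1 ± 1.86 CPM in HSD52_OE (log2 fold change -0.30 ± 0.09, adjusted p = 0.00814), a call lost with library totals alone (adjusted p = 0.103). UQCRH, the hinge protein, had 319, 378 and 405 CPM in control and 381, 383 and 379 CPM in HSD52_OE (log2 fold change 0.05 ± 0.10, adjusted p = 0.667), while the near-identical UQCRHL had 15.3, 10.1 and 17.4 CPM in control and 5.81, 7.07 and 7.31 CPM in HSD52_OE (log2 fold change -1.08 ± 0.18, adjusted p = 0.000164). UQCRHL's groups were apart and UQCRH's overlapped, but reads of such a pair may be split between the copies by the counting, so the UQCRHL value is uncertain. UQCRB (149.6 ± 22.7 CPM in control and 134 ± 10.8 CPM in HSD52_OE) and UQCRQ (241 ± 41.5 CPM in control and 235 ± 12.1 CPM in HSD52_OE) did not pass. CYCS, the mobile carrier cytochrome c, had 188, 209 and 223 CPM in control and 208, 229 and 212 CPM in HSD52_OE, with overlap (log2 fold change 0.07 ± 0.09, adjusted p = 0.545). Of 6 complex III assembly genes, UQCC1 (62.6 ± 4.48 to 88.1 ± 3.29 CPM) and LYRM7 (25.6 ± 4.89 to 35.9 ± 1.37 CPM) were higher, and BCS1L (42.0 ± 2.51 to 32.2 ± 1.69 CPM), which inserts the Rieske protein, was lower.

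Complex IV, cytochrome c oxidase, had 5 of 14 tested members lower and 0 higher in edgeR, and 0 were higher at an unadjusted p under 0.05, in DESeq2 or in limma-voom. COX5A, a subunit on the matrix side, had 109, 109 and 124 CPM in control and 75.4, 70.5 and 68.5 CPM in HSD52_OE (log2 fold change -0.67 ± 0.09, adjusted p = 1.34e-05). The lowest control lay well above the highest HSD52_OE library. COX4I1, the widely expressed form of the regulatory subunit that pairs with COX5A, had 345, 378 and 379.8 CPM in control and 314, 293 and 316 CPM in HSD52_OE (log2 fold change -0.26 ± 0.09, adjusted p = 0.0213), a call lost without any 1 of the HSD52_OE libraries (adjusted p of 0.0581 to 0.141). COX5B, the zinc-binding subunit, had 161, 188 and 197 CPM in control and 191, 183 and 193 CPM in HSD52_OE and did not pass (log2 fold change 0.05 ± 0.09, adjusted p = 0.633). NDUFA4 had 243, 287 and 313 CPM in control and 227, 237 and 224 CPM in HSD52_OE (log2 fold change -0.29 ± 0.10, adjusted p = 0.0191) and COX8A had 323, 355 and 233 CPM in control and 245, 249.5 and 233 CPM in HSD52_OE (log2 fold change -0.33 ± 0.12, adjusted p = 0.036). Both calls were lost without any 1 HSD52_OE library, and that of COX8A also without control replicate 1 or 2. The lowest COX8A control lay within the HSD52_OE range. COX7A2L, which joins complexes III and IV into supercomplexes and is not a subunit of the enzyme alone, had 84.0, 96.3 and 100.4 CPM in control and 64.8, 63.7 and 72.5 CPM in HSD52_OE (log2 fold change -0.48 ± 0.09, adjusted p = 0.000462) with groups apart.

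The tissue-restricted forms of complex IV subunits were near or at 0. COX7B2 and COX8C had 0 counts in all 6 libraries, where a count of 0 at the lowest library total allows up to 0.169 CPM (3 counts, for counting error only). COX4I2 had 2 counts, in 1 library, and COX6A2 had 3 counts, in 1 library. COX7A1, the heart and muscle form, had 0 to 11 counts. COX6B2, the testis form, had 0.989 ± 0.189 CPM in control and 0.977 ± 0.255 CPM in HSD52_OE, and NDUFA4L2, known to be induced by low oxygen, had 1.17 ± 0.265 CPM in control and 1.21 ± 0.359 CPM in HSD52_OE, neither of which passed (log2 fold change -0.02 ± 0.34, adjusted p = 0.971 and log2 fold change 0.05 ± 0.33, adjusted p = 0.912). Their widely expressed counterparts carried the reads: COX6A1 had 58.9 ± 7.09 CPM in control and 55.7 ± 3.13 CPM in HSD52_OE, COX6B1 130.0 ± 6.13 CPM in control and 124 ± 2.57 CPM in HSD52_OE, COX7A2 201 ± 30.0 CPM in control and 232 ± 4.49 CPM in HSD52_OE and COX7B 82.9 ± 16.0 CPM in control and 75.5 ± 1.06 CPM in HSD52_OE, and none of these 4 passed. COX6C and COX7C, which have a single form, did not pass either, both with a log2 fold change of -0.08. Of 25 complex IV assembly genes 7 were lower and 4 were higher, beside 30.1% and 21.4% of all protein-coding genes tested. TACO1, an activator of translation inside mitochondria, had 47.0 ± 5.21 CPM in control and 33.6 ± 1.94 CPM in HSD52_OE, COA4 had 106 ± 8.43 and 79.3 ± 4.40 CPM, and CMC2 had 57.7 ± 6.48 and 45.9 ± 2.79 CPM. SCO1, a copper chaperone, was higher at 49.4 ± 2.71 and 74.1 ± 2.26 CPM, as were COA5 at 52.0 ± 4.76 and 68.3 ± 0.795 CPM and PET100 at 1.16 ± 0.181 and 2.49 ± 0.597 CPM.

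Complex V, ATP synthase, had 7 of 19 tested members lower and 1 higher. In the F1 head and its central stalk, ATP5F1A (alpha) and ATP5F1D (delta) were lower. ATP5F1D had 154, 187 and 166 CPM in control and 104, 90.9 and 94.7 CPM in HSD52_OE (log2 fold change -0.81 ± 0.09, adjusted p = 4.65e-06), with each control well above each HSD52_OE library. ATP5F1A had 575, 549 and 576 CPM in control and 425, 420.1 and 433 CPM in HSD52_OE (log2 fold change -0.41 ± 0.08, adjusted p = 0.000878), also without overlap. ATP5F1B (beta), which carries the catalytic sites, had 903, 833 and 871 CPM in control and 736, 764 and 780.4 CPM in HSD52_OE, and although its groups were apart it did not pass (log2 fold change -0.19 ± 0.09, adjusted p = 0.0827). ATP5F1C (gamma), the rotating shaft, had 136, 148 and 165 CPM in control and 132, 129 and 141 CPM in HSD52_OE (log2 fold change -0.16 ± 0.09, adjusted p = 0.138). ATP5F1E (epsilon) had 249, 293 and 349 CPM in control and 339, 342 and 334 CPM in HSD52_OE (log2 fold change 0.19 ± 0.11, adjusted p = 0.16), and neither of these 2 passed.

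All 3 genes of the c ring, which code for the same mature rotor protein with different import sequences, were lower with groups apart. ATP5MC1 had 95.6, 103 and 89.3 CPM in control and 65.7, 79.0 and 73.4 CPM in HSD52_OE (log2 fold change -0.40 ± 0.09, adjusted p = 0.00187). ATP5MC2 had 220.1, 224 and 235 CPM in control and 182, 197 and 189.6 CPM in HSD52_OE (log2 fold change -0.25 ± 0.08, adjusted p = 0.0155), a call lost without HSD52_OE replicate 1 (adjusted p = 0.0995) or replicate 3 (adjusted p = 0.0626). ATP5MC3 had 189, 221 and 199 CPM in control and 153, 149 and 158 CPM in HSD52_OE (log2 fold change -0.40 ± 0.09, adjusted p = 0.00105). In the peripheral stalk, which holds the head still, ATP5PD had 66.4, 91.0 and 75.8 CPM in control and 43.3, 48.0 and 58.3 CPM in HSD52_OE (log2 fold change -0.64 ± 0.12, adjusted p = 0.000472) and ATP5PB had 207, 216 and 247 CPM in control and 164, 155 and 180.0 CPM in HSD52_OE (log2 fold change -0.42 ± 0.09, adjusted p = 0.0014). Both were apart between groups, while ATP5PO (29 ± 2.96 CPM in control and 25.0 ± 1.63 CPM in HSD52_OE) and ATP5PF (112 ± 13.5 CPM in control and 107 ± 5.19 CPM in HSD52_OE) did not pass. None of the 5 tested membrane accessory genes (ATP5ME, ATP5MF, ATP5MG, ATP5MPL and ATP5MD) passed, nor did the inhibitor ATP5IF1, and their log2 fold changes lay between -0.09 and 0.07, with 0 of the accessory genes past an unadjusted p under 0.05 in edgeR or called by DESeq2 or limma-voom. ATP5S, named for ATP synthase but not a subunit, had 13.6, 14 and 15.2 CPM in control and 22.6, 22.5 and 25.2 CPM in HSD52_OE (log2 fold change 0.72 ± 0.11, adjusted p = 6.32e-05), with groups apart. Of 4 complex V assembly genes ATPAF1 (50.6 ± 2.90 to 38.8 ± 2.72 CPM) and TMEM70 (40.4 ± 1.51 to 32.9 ± 2.28 CPM) were lower and 0 were higher in edgeR, with 2 higher at an unadjusted p under 0.05 and 0 in DESeq2 or limma-voom.

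Levels of different members were compared per kilobase of exonic length. COX8A ranked first at 599 ± 125 CPM per kb in control and 478 ± 17.1 CPM per kb in HSD52_OE, with 55.1% of its coding bases shared with another gene. NDUFS5 (370 ± 27.6 and 351 ± 4.52 CPM per kb) and ATP5F1B (374 ± 15.2 and 327 ± 9.64 CPM per kb) came next, and in control these 2 did not differ beyond their spread. UQCRH followed at 261 ± 31.2 and 271 ± 1.49 CPM per kb.

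The members were also set beside the other tested genes within 1 Mb of each. For 12 members the neighbours' median log2 fold change was below -0.3, and 7 of the 11 tested among them were lower and 0 were higher. Those 7 were NDUFS7, NDUFS8, CYC1, UQCR11, COX4I1, ATP5F1D and ATP5PD. ATP5F1D (chromosome 19, 1241746 to 1244826) had a neighbours' median of -0.62, with 51 of 67 neighbours called lower. NDUFS7 (1383527 to 1395589) had -0.57 with 51 of 71 lower, and UQCR11 (1597172 to 1605490) had -0.61 with 49 of 69 lower, from windows that largely hold the same genes. For 5 members the neighbours' median was above 0.3, and 3 of them were higher: NDUFA9 (0.75), NDUFAB1 (0.39) and UQCRC2 (0.52). Among the 82 members whose neighbours' median lay within 0.3 of 0, 74 were tested, with 23 lower and 8 higher. NDUFA4 and NDUFA5 had fewer than 3 tested neighbours and no median. All 11 tested members with a neighbours' median below -0.3 had log2 fold changes below 0, from -0.81 (ATP5F1D) to -0.01 (NDUFV1). All 5 with a neighbours' median above 0.3 had log2 fold changes above 0. Of the 74 tested members with a neighbours' median within 0.3 of 0, 53 were below 0 and 21 above. How often tested genes in general lie in such surroundings or share their direction was not measured. These counts therefore cannot be read as particular to the members. The part of the surroundings in each call was not tested.

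**Figure D4:**
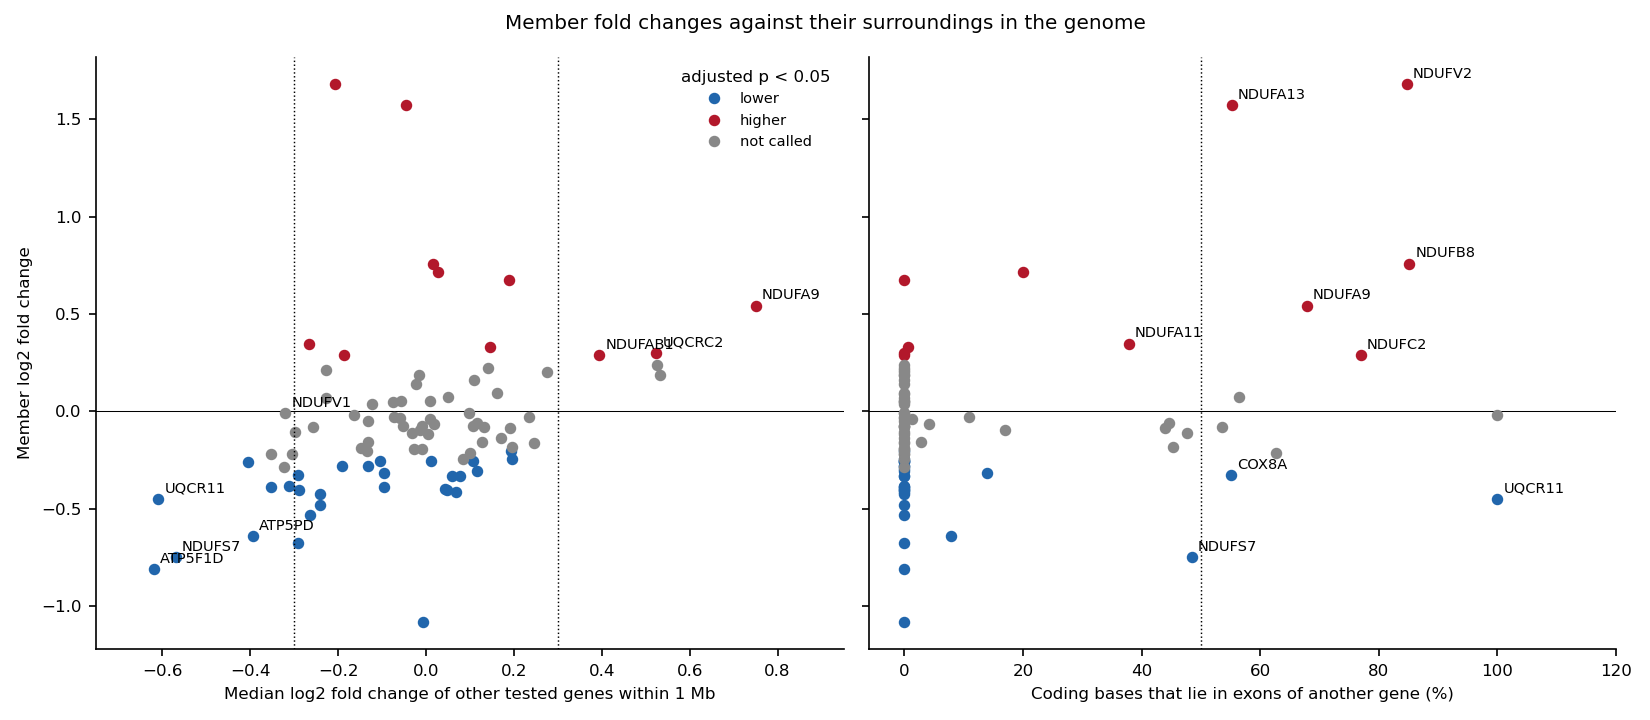
Log2 fold change of tested members (y axis) against the median log2 fold change of the other tested genes within 1 Mb (left) and against the percentage of coding bases that lie in exons of another gene (right), coloured by call, with dotted lines at the bounds of 0.3 and 50%. Members called lower reach the far left of the left panel, while 5 of the 7 called members right of the line in the right panel are higher.

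Over 14 alternative fits, 18 of the 31 lower calls and 5 of the 11 higher calls were kept in every one. The other 13 lower calls were each lost with library totals alone, most of them in further fits as well. Of the 18, 12 had neighbours whose median lay within 0.3 of 0, among them NDUFS1, NDUFA8, SDHA, UQCRC1, UQCRHL, COX5A, COX7A2L, ATP5F1A, ATP5MC1, ATP5MC3 and ATP5PB. They cover each of complexes I to V. Some lay near the bound, with neighbours' medians of -0.29 for COX5A and ATP5MC3, -0.26 for SDHA and -0.24 for COX7A2L and ATP5PB. The other genes named lay between -0.10 (UQCRC1) and 0.07 (ATP5F1A). Of the 5 higher calls kept, NDUFAF6 and ATP5S had neither shifted neighbours nor more than 50% of coding bases shared, and neither is a subunit.

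The 13 mitochondrially encoded subunits of the same complexes had 2 members higher and 1 lower. MT-ND3 of complex I had 691, 580 and 639 CPM in control and 1118, 1196 and 1054 CPM in HSD52_OE (log2 fold change 0.82 ± 0.10, adjusted p = 8.13e-06). MT-ND4 of the same complex had 4172, 3376 and 3327 CPM in control and 2529, 2585 and 2408 CPM in HSD52_OE (-0.53 ± 0.11, adjusted p = 0.000902). MT-CO2 of complex IV had 3771 ± 492 CPM in control and 4744 ± 33.6 CPM in HSD52_OE (0.33 ± 0.11, adjusted p = 0.0207). In none of these 3 did the groups overlap. Summed for complex IV, the mitochondrially encoded subunits had 18227, 13896 and 15304 CPM in control and 17965, 18148 and 17598 CPM in HSD52_OE. These groups overlapped, as control replicate 1 lay above every HSD52_OE library.

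Of 15 tested genes that regulate the respiratory chain 3 were higher and 5 lower, near the shares of all protein-coding genes given above (21.4% and 30.1%). GABPA, which binds the ETS core searched above, had 34.9 ± 1.39 CPM in control and 49.0 ± 0.931 CPM in HSD52_OE, and its exons overlap those of ATP5PF on the opposite strand. NRIP1, a corepressor, rose from 65.0 ± 6.30 to 95.9 ± 6.61 CPM, and PERM1 from 0.435 ± 0.268 to 1.82 ± 0.237 CPM. YY1 fell from 173 ± 2.79 to 131 ± 2.21 CPM, CREB1 from 52.6 ± 2.15 to 39.0 ± 0.795 CPM and PPARA from 35.1 ± 4.53 to 25.8 ± 1.55 CPM. In mitochondrial DNA upkeep and transcription 5 of 18 were higher and 5 lower, beside the same 21.4% and 30.1%. POLG, the mitochondrial DNA polymerase, fell from 103 ± 6.90 to 52.6 ± 1.06 CPM, POLDIP2 from 149 ± 12.9 to 87.6 ± 3.37 CPM, and POLRMT, the mitochondrial RNA polymerase, from 107 ± 15 to 64.9 ± 2.69 CPM. MTERF1 rose from 19.5 ± 2.29 to 32.3 ± 1.31 CPM, MTERF2 from 4.87 ± 0.376 to 9.20 ± 1.37 CPM and RNASEH1 from 52.9 ± 3.42 to 69.4 ± 3.07 CPM.

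Coenzyme Q synthesis, which makes the carrier between complexes I, II and III, had 5 of 13 genes higher and 1 lower. For this list and the 2 that follow, the shares over protein-coding genes tested were 21.4% higher and 30.1% lower. COQ7 rose from 20.3 ± 1.13 to 34.0 ± 2.91 CPM, COQ4 from 57.8 ± 6.07 to 78.2 ± 3.25 CPM and PDSS2 from 16.2 ± 1.96 to 22.4 ± 0.639 CPM, while COQ9 fell from 52.1 ± 2.38 to 42.2 ± 1.6 CPM. Of 7 tested genes for other routes of electrons into coenzyme Q, 3 were lower and 1 was higher. ETFA and ETFB, the electron transfer flavoprotein of fatty acid oxidation, were both lower, ETFA at 122 ± 5.95 against 88.6 ± 1.93 CPM and ETFB at 75.9 ± 8.72 against 61.8 ± 1.54 CPM in HSD52_OE, DHODH fell from 20.1 ± 2.05 to 16.4 ± 0.323 CPM, and AIFM1 rose from 67.9 ± 4.64 to 83.7 ± 1.38 CPM. Of 8 tested carriers and uncoupling proteins, UCP2 (54.2 ± 4.19 to 35.2 ± 1.94 CPM) and SLC25A3, the phosphate carrier (412 ± 22.0 to 338 ± 9.93 CPM), were lower, and SLC25A27 (3.04 ± 1.09 to 8.50 ± 1.55 CPM) and SLC25A14 (11 ± 1.01 to 15.7 ± 0.264 CPM) were higher.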

How the data were processed

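Poly-A RNA of 6 LN229 libraries was sequenced on an Illumina NovaSeq instrument, per the labels' protocols. The deposited table holds raw read counts, not normalized, together with each gene's exonic length and position. The submitters' processing notes name CASAVA, HISAT2 2.0.5, featureCounts 1.5.0-p3 and the build hg38. Neither the strand setting nor the treatment of reads in 2 genes is given in the sources used here. Starts, ends and exonic lengths of all 101 members match GENCODE 29 (GRCh38), which gave the exon overlaps.

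Counts were fitted with edgeR 4.0.16 in R 4.3.3 (TMM scaling, filterByExpr, robust quasi-likelihood test, 2-sided), with group as the only term. Benjamini-Hochberg adjustment ran over all 16322 genes tested, with a threshold of 0.05. CPM are TMM-scaled and given as mean ± SD (n = 3). Values after a log2 fold change are standard errors. Library totals of 17777157 to 18917790 counts set the precision of low rows. Alternatives were RLE, library totals, other filters, DESeq2 1.42.0, limma-voom (limma 3.58.1), a replicate block, protein-coding genes alone and each library left out.

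The members, the gene lists and the 1 Mb neighbour measure were chosen with earlier results of these data known. Values in every library are given for the core subunits of complex I, the subunits of complex II, CYC1, CYCS, UQCRFS1, COX4I1, COX5A, COX5B, the F1 subunits, the 3 members with the smallest p in each direction in each complex, and called members with a fold of at least 1.5. Isoform pairs are given together, and the other lists are represented by the 3 genes of lowest p on either side. The values of 1 complex I member are not reported here, and it is left out of the plots of single members, while all counts and sums include it. The coding-share measure, the GCGCAGGC search and the background of at least 10 CPM were chosen after seeing the data. Promoter windows are RefSeq's, matched by symbol.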

Additional observations from a re-analysis of the deposited data

How the results depend on the processing

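Each of the 42 called members kept its direction in every alternative that tested it, and 23 kept their calls in all of them. With library totals alone the members' counts were 18 lower and 18 higher with a median log2 fold change of 0.0084 in place of -0.11, complex I had 5 lower and 14 higher, complex IV 2 and 1, and complex V 2 higher. That scaling moved the median of all genes by 0.12, and testing without a low-count filter moved it by 0.22. Keeping genes that reach 1 CPM in any 3 libraries gave complex I 7 lower, and protein-coding genes alone gave 6 lower in complex I and 2 lower and 1 higher in complex IV. Leaving out 1 library at a time gave 20 to 41 lower and 7 to 14 higher members, medians of -0.19 to -0.09, 6 to 19 lower and 5 to 11 higher in complex I, 5 to 7 and 0 to 1 in complex III, 2 to 5 and 0 to 1 in complex IV, 6 to 9 and 1 to 2 in complex V, and 6691 to 8832 genes called over the whole table in place of 8259. The cause of these shifts was not tested. A fold of at least 1.5 left 5 lower and 5 higher members, 1 and 4 in complex I, 1 and 0 in complex III, 1 lower in complex IV and 2 lower in complex V. Subunits only left 0 higher in complex V, and dropping members with shifted neighbours left 0 higher in complex III, because ATP5S and UQCRC2 went out. Dropping members with over 50% of coding bases shared left 6 higher in all and 4 in complex I. NDUFV2, NDUFA13 and NDUFA7 had 62 counts or fewer in each library.

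The labels do not say whether replicate numbers pair the libraries. Same-numbered libraries had correlations of their deviations from the group means of 0.04, 0.03 and 0.03. These values cannot tell whether the libraries were handled together. With the replicate block 31 members were lower, 12 were higher and 8436 genes were called, and of the members called without the block NDUFB10 alone lost its call (adjusted p = 0.0682).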
